A study of Mus musculus with 22 samples.

Results

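The genes described here encode the factors that start and carry out protein synthesis on cytosolic ribosomes: the initiation factors (eIF genes), the poly(A)-binding protein gene Pabpc1, the elongation factors (eEF genes and Eif5a), the kinase gene Eef2k and Tpt1. They are 43 genes, chosen by symbol from the function of their products and not from their values, out of 24819 genes in each of the 2 tables. All 43 were present in both tables, and all 43 passed the filter on low values (1 FPKM or more in no fewer than 2 libraries) in both fits. FPKM, a count of fragments scaled to transcript length and library size, is a level per length. Genes can be compared on it within a table, but ratios between genes differed between the 2 tables.

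The RNA came from E14 cells, an established line of mouse embryonic stem cells, kept on gelatin with leukemia inhibitory factor and harvested 3 days after transfection of small interfering RNAs (siRNAs). The 22 libraries were of 6 kinds. Control cells received siNT with more siNT (called siNT here, though the labels do not spell out NT). Single knockdowns paired siNT with siRpl14, siRpl11 or siDux, and double knockdowns were siRpl14+siRpl11 and siRpl14+siDux. The products of Rpl14 and Rpl11 are part of the large ribosomal subunit, and Dux encodes a transcription factor of the early embryo. Set 1 holds duplicates (8 libraries) of the control, both single ribosomal protein knockdowns and their combination. Set 2, in the same table, holds 1 library for the control, siRpl14, siDux and the siRpl14+siDux combination. Set 3, the other table, holds duplicates of those same 4 kinds and, without a replicate, siRpl11 and siRpl14+siRpl11. The labels do not say whether replicates were separate cultures.

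As background, initiation begins when eIF2, loaded with GTP and the initiator tRNA, joins the small ribosomal subunit with eIF1, eIF5 and the large scaffold eIF3. The eIF4 proteins bring the mRNA: eIF4E binds the cap, eIF4G is the scaffold, eIF4A unwinds the leader with the help of eIF4B or eIF4H, and the eIF4E-binding proteins (4E-BPs) hold eIF4E back. After the start codon is found, eIF5 promotes GTP hydrolysis, eIF5B joins the large subunit and eIF2B recharges eIF2. Elongation uses eEF1A to deliver tRNAs, the eEF1B subunits to recharge it, and eEF2 to move the ribosome along. Several of these mRNAs, those of the elongation factors and some eIF3 subunits among them, are known to carry a 5′ terminal oligopyrimidine tract, as ribosomal protein mRNAs do.

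Promoter sequences are shown for 4 members that the results turn on, to set 3 that rose in the knockdowns of set 1 beside 1 that fell in all of them. Each line gives the 250 bases before a RefSeq transcription start on the build GRCm38.p6, 5′ to 3′ on the gene's strand, and capitals mark the motifs CACGTG (E-box), CCGGAAG (ETS core) and CCAAT on either strand. Eif1 lies on the plus strand at chr11:100319699-100319948, Eif1b on the plus strand at chr9:120492356-120492605, the downstream start of Eif4e on the plus strand at chr3:138527018-138527267, and Eif4a2 on the plus strand at chr16:23107218-23107467.
Eif1: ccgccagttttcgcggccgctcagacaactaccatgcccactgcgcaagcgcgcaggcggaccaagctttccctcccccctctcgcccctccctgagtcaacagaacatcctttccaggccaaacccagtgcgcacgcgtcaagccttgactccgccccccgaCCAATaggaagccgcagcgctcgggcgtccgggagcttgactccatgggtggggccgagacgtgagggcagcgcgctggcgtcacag
Eif1b: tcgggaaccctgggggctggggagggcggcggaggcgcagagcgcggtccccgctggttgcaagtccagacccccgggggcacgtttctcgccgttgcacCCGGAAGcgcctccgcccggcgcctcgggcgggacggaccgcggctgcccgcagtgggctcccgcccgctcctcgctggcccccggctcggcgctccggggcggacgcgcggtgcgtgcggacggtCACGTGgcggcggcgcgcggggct
Eif4e: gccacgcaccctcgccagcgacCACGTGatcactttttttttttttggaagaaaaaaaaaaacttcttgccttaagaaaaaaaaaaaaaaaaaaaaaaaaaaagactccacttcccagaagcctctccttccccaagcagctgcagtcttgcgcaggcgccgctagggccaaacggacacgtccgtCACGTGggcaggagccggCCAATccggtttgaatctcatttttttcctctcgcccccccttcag
Eif4a2: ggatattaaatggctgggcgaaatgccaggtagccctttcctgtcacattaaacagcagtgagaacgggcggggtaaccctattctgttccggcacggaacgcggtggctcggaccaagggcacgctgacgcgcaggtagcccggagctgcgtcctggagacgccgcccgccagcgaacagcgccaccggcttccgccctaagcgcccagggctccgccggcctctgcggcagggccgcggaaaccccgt

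The Eif4e window holds CACGTG at 2 places, the Eif1b window at 1, and the Eif1 and Eif4a2 windows hold none. RefSeq windows were matched for 34 of the 43 members, 43 windows in all because some genes have several starts. CACGTG was in 12 of these windows (27.9%), against 6.02% of all 32851 windows in the RefSeq table and 8.57% of the windows of genes tested in set 1. The 12 windows belong to 10 members, Eef2, Eef2k, Eif1b, Eif3f, Eif3k, Eif4a1, Eif4e, Eif4g1, Eif4h and Eif5a, and some of the Eif5a windows overlap each other. CCGGAAG was in 18.6% of the member windows, against 6.91% of all windows and 13.7% of those of tested genes, and CCAAT in 23.3% against 33.8% and 35.9%. TATAAA was in 9.3% against 12.4% and 6.08%. Neither TGACGTCA (the cAMP response element) nor TGATGCAA (a C/EBP-ATF element) was in any member window, and they were in 1.55% and 0.791% of all windows. The member windows had a median GC content of 61.6%, against 52.4% for all windows. Of the 10 members with CACGTG, 3 were higher and 1 lower in siRpl14 than in siNT in set 1, and of the other 24 matched members 4 were higher and 4 lower. These matches describe the letters in the windows and were not tested against the changes below.

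The Rpl14 and Rpl11 mRNAs were low in the libraries given the matching siRNA. In set 1, Rpl14 ranged from 232 to 893 FPKM in libraries that received siRpl14 and from 1417 to 1550.3 FPKM in the others, and Rpl11 from 98.4 to 260.1 FPKM with siRpl11 and from 624 to 829 FPKM without it. The weaker Rpl14 knockdown was siRpl14 replicate 1 (893 FPKM, 402 FPKM in replicate 2), and the weaker Rpl11 knockdown was siRpl11 replicate 1 (260.1 FPKM, 113 FPKM in replicate 2). Dux was at 1.5 FPKM or less in sets 1 and 2 and was listed at 0 in all libraries of set 3 but 1. At these low levels it differed between groups. In set 1 Dux averaged 0.285 FPKM in siNT, 0.389 FPKM in siRpl11, 1.28 FPKM in siRpl14 and 0.606 FPKM with both. It was called higher with siRpl14 there (log2 fold change 0.83). The single libraries of set 2 gave 0.306 FPKM in siNT, 1.5 FPKM in siRpl14, 0.0546 FPKM in siDux and 0.168 FPKM in siRpl14+siDux. All 10 embryonic stem cell markers were detected in every set, with summed levels of 5743 to 9001 FPKM in set 1, with a sum of 5743 to 6239 FPKM in siRpl14 and 8108 to 9001 FPKM in siNT. The 10 markers did not move together with siRpl14: Sall4, Lin28a and Sox2 rose, Tdgf1 and Dppa5a fell, and 5 were not called. The 8 trophectoderm markers summed to 49.3 to 74.9 FPKM in siRpl14 of set 1 and 35.8 to 40.4 FPKM in siNT, and to 26.1 to 31.9 FPKM where siRpl11 was present, with Elf5 at 0 there. The 8 fibroblast feeder markers summed to 18.2 to 18.8 FPKM in siNT and 4.96 to 9.85 FPKM in the knockdowns, with Postn, Dcn and Lum at 0 in every library of set 1. The 7 primitive endoderm markers summed to 3.57 to 9.46 FPKM over all libraries of set 1. These marker levels moved with the groups compared below, and their part in the members' changes was not tested. In bulk RNA, a different mix of cells and a different amount of RNA per cell cannot be told apart. Absolute depth is unknown for these files, and 30.1 to 32.1% of genes were at 0 per library in sets 1 and 2 against 50.5 to 56.2% in set 3.

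Translation factor mRNAs were abundant. In siNT of set 1 the median over the 43 members was 154 FPKM and 29 members were among the 1000 highest genes. Together they took 3.93 to 4.36% of the summed FPKM in set 1, 3.83 to 4.05% in set 2 and 1.80 to 2.63% in set 3. Eef1a1, which encodes the tRNA-delivering elongation factor, was the highest of all genes in siNT of set 1, with a mean of 11033 FPKM. Eef2 (1778 FPKM), Tpt1 (1667 FPKM) and the helicase gene Eif4a1 (1045 FPKM) followed at levels per length far below it. At the low end, Eif4g3, which encodes a second eIF4G scaffold, averaged 4.94 FPKM and Eef2k, which encodes the kinase that turns eEF2 off, 6.81 FPKM. Subunits that sit in 1 complex in equal numbers did not have equal mRNA levels: the 12 eIF3 genes ranged from 67.4 FPKM (Eif3e) to 359 FPKM (Eif3k) in siNT of set 1, the 5 eIF2B genes from 23.5 FPKM (Eif2b4) to 61.7 FPKM (Eif2b5), and the 3 eIF2 genes from 44.7 FPKM (Eif2s3x) to 153 FPKM (Eif2s2). In siNT of set 3, the eIF3 genes ran from 24.1 FPKM (Eif3d) to 221 FPKM (Eif3a), with Eif3e at 137 FPKM. The eIF2B genes there ran from 4.26 FPKM (Eif2b2) to 20.9 FPKM (Eif2b3), and the eIF2 genes again from Eif2s3x to Eif2s2. The ranks within eIF3 and eIF2B thus differed between sets. Eef1a1, Tpt1, Eif4a1 and Eef1b2 have processed pseudogenes, Eif1 and Eif1b are close copies, and Eif2s3x has a Y-linked copy, so how reads were split among copies makes these levels less certain.

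Depleting either ribosomal protein mRNA changed individual translation factor genes in both directions. With siRpl14 in set 1, 9 members rose and 6 fell by limma's test, 34.9% of the members, against 31.5% of all 12129 genes tested (18.1% higher and 13.4% lower). With siRpl11, 13 rose and 6 fell, 44.2% of the members against 44.3% of all genes (16% higher and 28.4% lower). With siRpl14+siRpl11, 11 rose and 6 fell, 39.5% against 41.6% of all genes (16.6% higher and 25% lower). The share of members called was thus near that of all genes in each comparison and is no result about the members as a group. The median log2 fold change was 0.00 for the members and 0.03 for all genes with siRpl14, 0.01 and -0.11 with siRpl11, and -0.01 and -0.07 with siRpl14+siRpl11. After quantile normalization the median of all genes with siRpl11 moved from -0.11 to 0.01 and its calls from 1938 higher and 3439 lower to 2552 and 2399, and those with siRpl14+siRpl11 from 2008 and 3035 to 2506 and 2325. The median-ratio rescaling gave 2609 and 2796 with siRpl11 and 2416 and 2696 with both. Among the members, quantile normalization ended the calls on Eif4e with siRpl14, Eif4a1 with siRpl11, and Eif3a and Eif2b3 with both, and added Tpt1 in each comparison. Median-ratio rescaling ended those on Eif4e with siRpl14, Eif3c and Eif4ebp2 with siRpl11, and Eif2b3 with both, and gave 8 members higher and 6 lower with siRpl14, 14 and 4 with siRpl11, and 13 and 5 with both. These 3 comparisons share the same siNT libraries, so their values are given side by side below and their likeness is not a result.

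**Figure D1:**
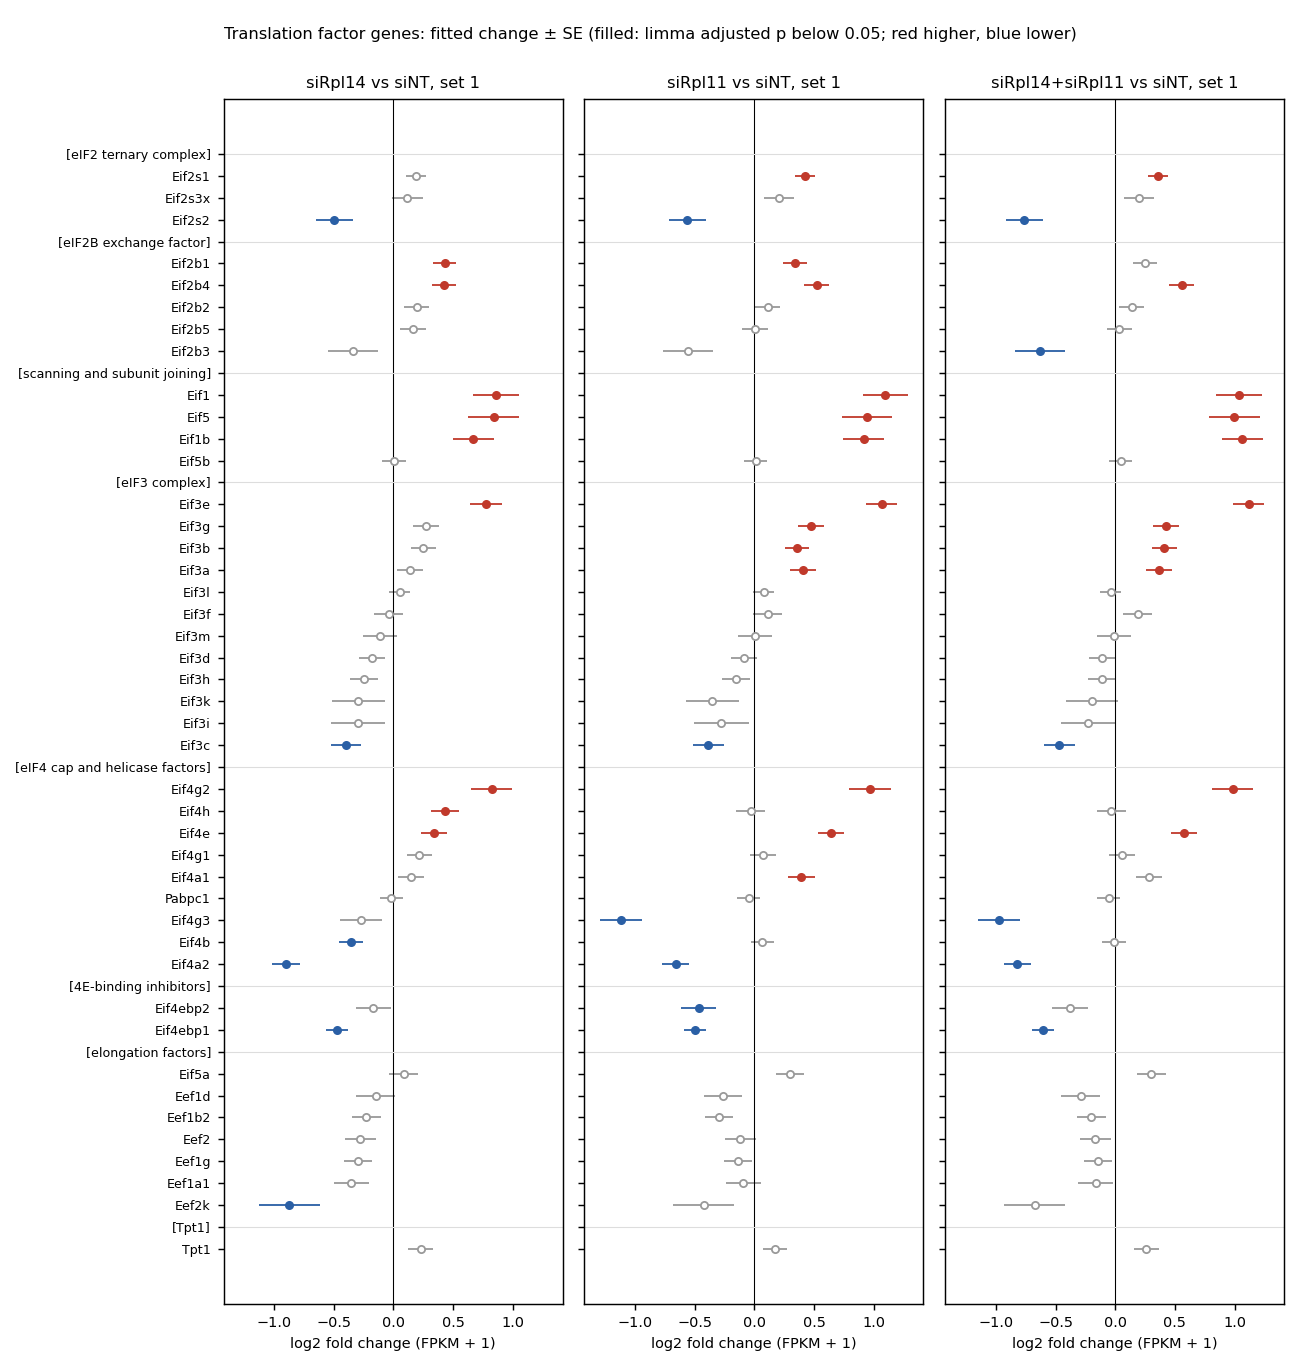
Log2 fold change on the log2(FPKM + 1) scale of each of the 43 genes against siNT in set 1, grouped by role, for siRpl14 (left), siRpl11 (middle) and siRpl14+siRpl11 (right). Points are limma estimates, bars are SE, and filled points had an adjusted p below 0.05: 9 higher and 6 lower on the left, 13 and 6 in the middle, 11 and 6 on the right.

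How many members were called depended on single libraries. With siRpl14 there were 15 calls in all, but 1 when siNT replicate 1 was left out, 5 when siNT replicate 2 was, and 2 when siRpl14 replicate 2 was, and only the Eif4a2 call was kept whichever library was left out. With siRpl11 there were 19, but 8 without siRpl11 replicate 2 and 11 without siNT replicate 1, and 8 calls were kept throughout. With siRpl14+siRpl11 there were 17, but 7 without replicate 1 of siRpl14+siRpl11, 9 and 11 without siNT replicate 1 and 2 in turn, and 7 were kept throughout. A lone remaining library was assumed to vary like the other groups.

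Most of the scanning factor genes were higher. Of the 4 genes Eif1, Eif1b, Eif5 and Eif5b, 3 rose in each knockdown of set 1 and 1, Eif5b, did not pass the test in any. The share called was 75% in each, against 31.5%, 44.3% and 41.6% of all genes with siRpl14, siRpl11 and both. The group's median log2 fold change was 0.75 with siRpl14, 0.93 with siRpl11 and 1.02 with siRpl14+siRpl11, beside 0.03, -0.11 and -0.07 for all genes.

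Eif1 encodes the factor that keeps the scanning ribosome open until the start codon is met. It stood at 311 and 315 FPKM in siNT, 476 and 679 FPKM in siRpl14, 595 and 757 FPKM in siRpl11, and 708 and 586 FPKM in siRpl14+siRpl11. All 6 knockdown libraries lay above both siNT libraries, and the siRpl14 libraries were farther apart than the siNT libraries. Eif1 rose by 0.86 ± 0.19 (log2 fold change ± SE, n = 2 libraries per group) with siRpl14 (limma, adjusted p = 0.0146), by 1.10 ± 0.19 with siRpl11 (limma, adjusted p = 0.00495) and by 1.04 ± 0.19 with both (limma, adjusted p = 0.00658). Without either siNT library or siRpl14 replicate 2, the limma adjusted p for siRpl14 was 0.0687 to 0.088. The other calls on Eif1 were kept.

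Eif1b, the close relative of Eif1, was lower in level and moved the same way. It measured 23.9 and 26.3 FPKM in siNT, 37.0 and 44.2 FPKM in siRpl14, 42.1 and 55.1 FPKM in siRpl11, and 60.5 and 47.3 FPKM with both siRNAs. Again no knockdown library overlapped siNT. The changes were 0.67 ± 0.17, 0.92 ± 0.17 and 1.06 ± 0.17 (limma, adjusted p = 0.0231, 0.00607 and 0.00472), and for siRpl14 the adjusted p was 0.0747 to 0.14 without either siNT library or siRpl14 replicate 2. The ratio of Eif1 to Eif1b stayed between 11.7 and 15.4 in the 8 libraries of set 1, with siNT at 13.0 and 11.98, so the pair rose about in proportion there. In set 3 the ratio was 3.03 and 3.70 in siNT, 5.02 and 2.54 in siRpl14, and 19.5 in the single siRpl11 library. Eif1b was 5.10 FPKM in that siRpl11 library against a siNT mean of 18.6 FPKM, a log2 difference of -1.64. The log2 difference of Eif1 there was 0.71.

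Eif5 encodes the GTPase-activating partner of eIF2. Its level was 41.6 and 56.6 FPKM in siNT, 74.1 and 104 FPKM in siRpl14, 82.9 and 108 FPKM in siRpl11, and 105 and 91.1 FPKM in siRpl14+siRpl11. The siNT libraries were the lowest pair. Eif5 rose by 0.84 ± 0.21, 0.95 ± 0.21 and 1.00 ± 0.21 (limma, adjusted p = 0.0219, 0.0103 and 0.0099). Leaving out siNT replicate 1, or replicate 2 of siRpl14 or siRpl11, ended the calls of the single knockdowns (limma, adjusted p = 0.137 to 0.149 for siRpl14 and 0.0674 to 0.0797 for siRpl11). Leaving out siNT replicate 1 or siRpl14+siRpl11 replicate 1 ended that of both (0.0639 to 0.0758). Eif5b, which joins the large subunit, gave 31.4 to 33.9 FPKM in all 8 libraries, and its log2 fold changes were 0.00, 0.01 and 0.05.

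**Figure D2:**
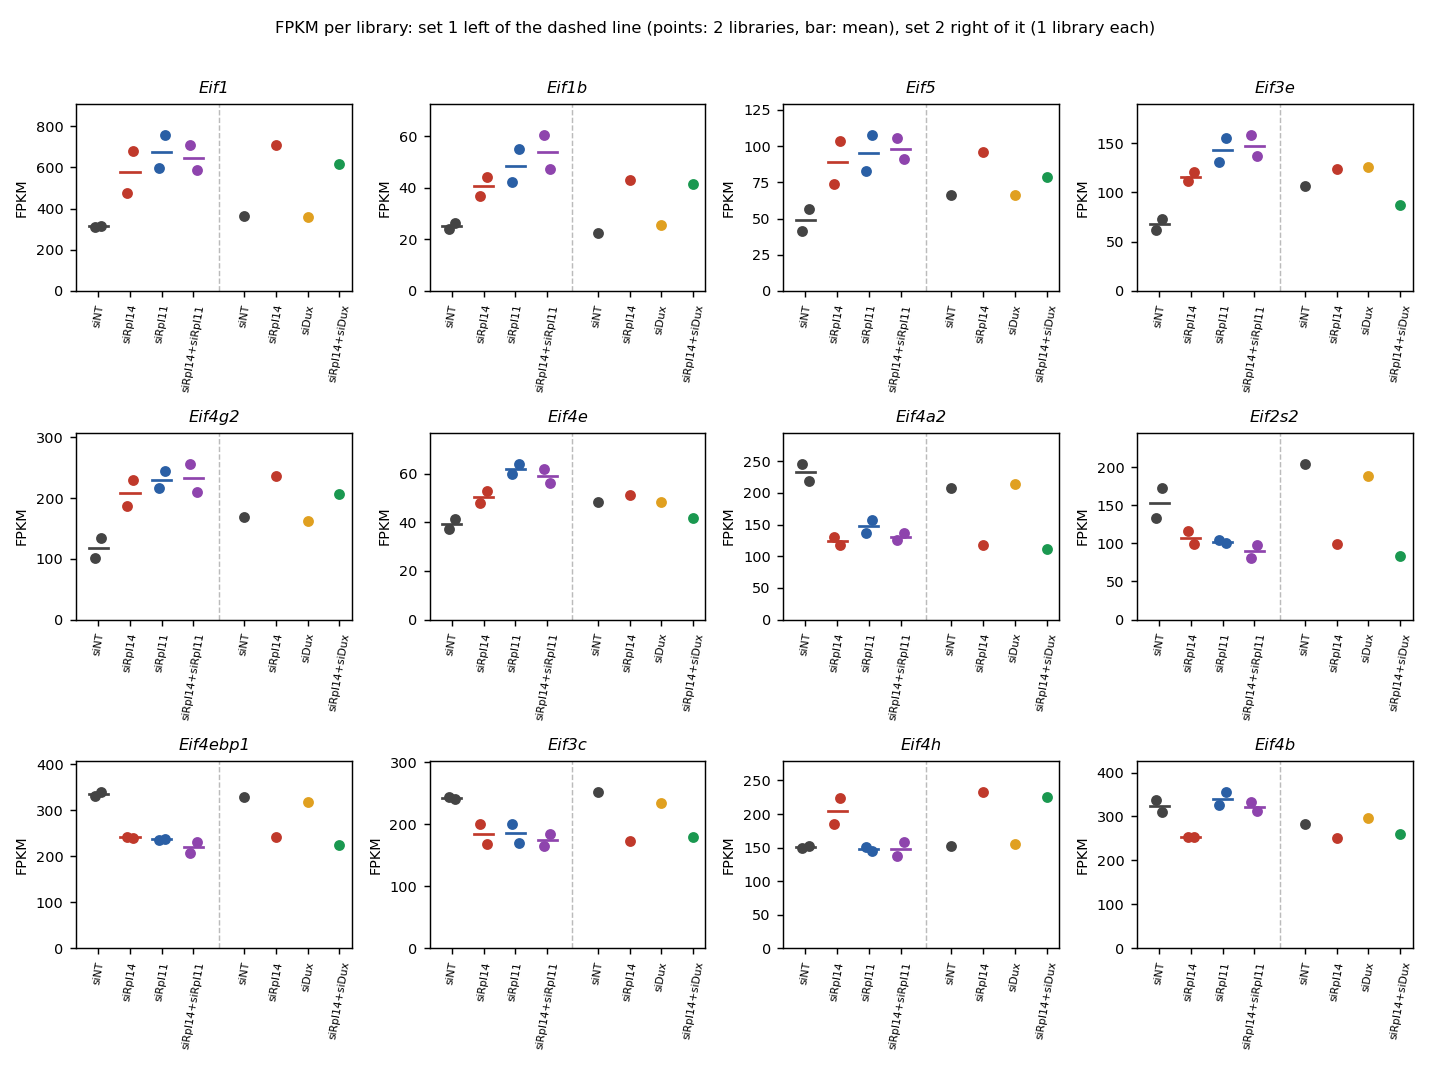
FPKM of 12 members in each library of set 1 (left of the dashed line, 2 libraries per group with their mean as a bar) and set 2 (right, 1 library per group), on axes starting at 0. Eif1, Eif1b, Eif5, Eif3e and Eif4g2 were above siNT in all 6 knockdown libraries of set 1, Eif4a2, Eif2s2, Eif4ebp1 and Eif3c were below it, and Eif4h and Eif4b departed from siNT in set 1 with siRpl14 alone.

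Among the eIF2 genes, the 3 subunits did not move together. Eif2s2, which encodes the beta subunit, was lower in the knockdowns, Eif2s1 (alpha, the subunit phosphorylated in the integrated stress response) was higher where siRpl11 was present, and Eif2s3x (gamma) did not pass the test. Eif2s2 measured 133 and 172 FPKM in siNT, 116 and 99.1 FPKM in siRpl14, 104 and 100.2 FPKM in siRpl11, and 80.4 and 98.1 FPKM in siRpl14+siRpl11. The groups did not overlap siNT, although the siNT libraries differed from each other by more than either pair of single-knockdown libraries. Eif2s2 fell by 0.49 ± 0.16, 0.56 ± 0.16 and 0.76 ± 0.16 on the log2 scale (limma, adjusted p = 0.0439, 0.0214 and 0.00872). The siRpl14 call was lost without either siNT library, either siRpl11 library or siRpl14 replicate 2 (limma, adjusted p = 0.0551 to 0.223), the siRpl11 call without siNT replicate 2 or either siRpl11 library (0.0517 to 0.125), and the call with both without siNT replicate 2 or siRpl14+siRpl11 replicate 1 (0.053 to 0.0646). Eif2s1 was 75.04 and 74.6 FPKM in siNT, 84.6 and 86.5 FPKM in siRpl14, 101 FPKM in each siRpl11 library, and 96.9 and 95.4 FPKM with both. It rose by 0.43 ± 0.08 with siRpl11 (limma, adjusted p = 0.00714) and 0.36 ± 0.08 with both (limma, adjusted p = 0.0139), and was 0.19 ± 0.08 with siRpl14 (limma, adjusted p = 0.116). The siRpl11 call on Eif2s1 had an adjusted p of 0.053 (limma) without siRpl11 replicate 2, and that with both 0.0565 to 0.0984 without either siNT library or siRpl14+siRpl11 replicate 1. Eif2s3x ranged from 43.6 to 58.2 FPKM, with log2 fold changes of 0.12, 0.21 and 0.20.

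The eIF2B genes, for the exchange factor that reloads eIF2 with GTP, also split by subunit. Eif2b4 (delta) was 22.4 and 24.6 FPKM in siNT, 31.8 FPKM in each siRpl14 library, 33.0 and 35.3 FPKM in siRpl11, and 36.3 and 33.6 FPKM with both. It rose in all 3 comparisons, by 0.42 ± 0.10, 0.52 ± 0.10 and 0.55 ± 0.10 (limma, adjusted p = 0.0193, 0.00688 and 0.00662). Eif2b1 (alpha) was 29.3 and 31.5 FPKM in siNT, 41.5 and 41.0 FPKM in siRpl14, 37.6 and 39.8 FPKM in siRpl11, and 37.9 and 34.8 FPKM with both. It rose with siRpl14 (0.43 ± 0.10; limma, adjusted p = 0.0164) and with siRpl11 (0.34 ± 0.10; limma, adjusted p = 0.0261), and was 0.25 ± 0.10 with both (limma, adjusted p = 0.0724). Eif2b3 (gamma) went below siNT: 46.6 and 46.8 FPKM in siNT, 44.6 and 30.2 FPKM in siRpl14, 34.8 and 28.3 FPKM in siRpl11, and 25.3 and 35.0 FPKM with both. It fell only by the test with both siRNAs, by 0.63 ± 0.21 (limma, adjusted p = 0.0435), and gave -0.34 ± 0.21 and -0.56 ± 0.21 with siRpl14 and siRpl11. The siRpl14 calls on Eif2b4 and Eif2b1 ended without either siNT library or siRpl14 replicate 2 (limma, adjusted p = 0.0501 to 0.112 and 0.0505 to 0.0959). The siRpl11 call on Eif2b4 ended without siRpl11 replicate 2 (0.0575) and that on Eif2b1 without any siNT or siRpl11 library (0.0565 to 0.157). With both siRNAs, the call on Eif2b4 ended without siRpl14+siRpl11 replicate 1 (0.0572), and that on Eif2b3 without that library or either siNT library (0.145 to 0.246). Eif2b2 (0.19, 0.11 and 0.14) and Eif2b5 (0.16, 0.00 and 0.03), which encodes the catalytic subunit, did not pass the test in any comparison.

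Of the 12 eIF3 genes, 1 rose and 1 fell with siRpl14 (16.7%, against 31.5% of all genes). With siRpl11, 4 rose and 1 fell, and likewise with both (41.7% in each, against 44.3% and 41.6% of all genes). Eif3e had the largest change of the complex in set 1. It was 62.3 and 72.5 FPKM in siNT, 111 and 120.3 FPKM in siRpl14, 131 and 155 FPKM in siRpl11, and 158 and 137 FPKM with both, so every knockdown library of set 1 was well above siNT. The rises were 0.78 ± 0.13, 1.07 ± 0.13 and 1.12 ± 0.13 (limma, adjusted p = 0.00638, 0.00248 and 0.00266), and the siRpl14 call had an adjusted p of 0.0566 without siNT replicate 1. In set 2, Eif3e was 107 FPKM in siNT, 124 FPKM in siRpl14, 126 FPKM in siDux and 87.5 FPKM in siRpl14+siDux. Its mean in set 3 was 137 FPKM in siNT and 130 FPKM in siRpl14. In set 1, Eif3c, a subunit of the core of the complex, measured 245 and 241 FPKM in siNT, 201 and 168 FPKM in siRpl14, 201 and 171 FPKM in siRpl11, and 165 and 185 FPKM with both. No knockdown library reached the siNT level. It fell by 0.40 ± 0.13, 0.39 ± 0.13 and 0.47 ± 0.13 (limma, adjusted p = 0.0475, 0.0405 and 0.0222), and each of these calls ended without either siNT library or the replicate named next (limma, adjusted p = 0.0571 to 0.249, 0.117 to 0.242 and 0.0822 to 0.142). These were replicate 2 of siRpl14 or either siRpl14+siRpl11 library for siRpl14, replicate 2 of siRpl11 for siRpl11, and replicate 1 of siRpl14+siRpl11 for both.

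The other eIF3 genes that passed were called in the comparisons with siRpl11 present, and a difference between siRpl14 and siRpl11 was not called for any eIF3 gene, although 1 was after median-ratio rescaling. When sets 1 and 2 were fitted together, Eif3g also passed with siRpl14 as higher (0.29 ± 0.09; limma, adjusted p = 0.0211) and Eif3h as lower (-0.27 ± 0.09; limma, adjusted p = 0.0353). Eif3g, Eif3a and Eif3b rose by 0.47 ± 0.11, 0.41 ± 0.11 and 0.36 ± 0.10 with siRpl11 (limma, adjusted p = 0.0119, 0.0192 and 0.0234) and by 0.42, 0.36 and 0.41 with both. With siRpl14 they gave 0.27, 0.14 and 0.25 (limma, adjusted p = 0.0908, 0.358 and 0.0916). The siNT levels of 149.7 and 158 FPKM (Eif3a) and 139.8 and 154 FPKM (Eif3b) compare with 203 and 206 FPKM and 179.6 and 198 FPKM in siRpl11. The 3 siRpl11 calls each ended when siNT replicate 1 or siRpl11 replicate 2 was left out. Those on Eif3g and Eif3a also ended without siNT replicate 2, and that on Eif3a without siRpl11 replicate 1. The 3 calls with both each ended without siNT replicate 1 or siRpl14+siRpl11 replicate 1. Again those on Eif3g and Eif3a also ended without siNT replicate 2, and that on Eif3a without siRpl14+siRpl11 replicate 2. Eif3d, Eif3f, Eif3h, Eif3i, Eif3k, Eif3l and Eif3m did not pass in any comparison of set 1 alone, with log2 fold changes from -0.35 (Eif3k with siRpl11) to 0.19 (Eif3f with both). Eif3i and Eif3k varied much within groups: Eif3k was 352 and 241 FPKM in siRpl14, 331 and 236 FPKM in siRpl11 and 391 and 326 FPKM in siNT.

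On the log2(FPKM + 1) scale, the eIF4 group, with the cap-binding and helicase genes, contained the member that fell most with siRpl14 and with siRpl11 in set 1. With siRpl14 that was Eif4a2 (-0.90), with the elongation group's Eef2k close behind (-0.87). The order of these 2 depends on the scale. Mean FPKM fell from 233 to 124 for Eif4a2 and from 6.81 to 3.39 for Eef2k. With siRpl14, 3 of its 9 members rose and 2 fell (55.6%, against 31.5% of all genes). The same counts were found with siRpl11 for partly other genes (55.6% against 44.3%). With both siRNAs 2 rose and 2 fell (44.4% against 41.6%). Eif4a1 and Eif4a2 encode near-identical helicases, and Eif4a2, the lower of the 2 mRNAs in siNT of sets 1 and 2, was the one that fell. In siNT of set 3 the 2 mRNAs were near each other, at 319 FPKM (Eif4a1) and 295 FPKM (Eif4a2).

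Eif4a2 measured 246 and 219 FPKM in siNT, 130.1 and 118 FPKM in siRpl14, 137 and 157 FPKM in siRpl11, and 126 and 136 FPKM with both. All knockdown libraries lay far below siNT. Eif4a2 fell by 0.90 ± 0.11, 0.66 ± 0.11 and 0.82 ± 0.11 (limma, adjusted p = 0.00261, 0.00491 and 0.00331), and all 3 calls were kept whichever library was left out. Eif4a1 was 989 and 1099.9 FPKM in siNT, 1191 and 1119 FPKM in siRpl14, 1360.5 and 1383 FPKM in siRpl11, and 1343 and 1201 FPKM with both. It rose with siRpl11 (0.39 ± 0.11; limma, adjusted p = 0.0226, and 0.0757 to 0.123 without siNT replicate 1 or either siRpl11 library) and gave 0.15 ± 0.11 and 0.28 ± 0.11 in the other comparisons. The ratio of Eif4a1 to Eif4a2 within a library was 4.02 and 5.01 in siNT and between 8.80 and 10.7 in the 6 knockdown libraries of set 1, with no overlap.

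Eif4g2 and Eif4g3 moved in opposite directions where siRpl11 was present, and Eif4g1 was not called. Eif4g2 encodes an eIF4G relative (DAP5) that does not bind eIF4E and serves cap-independent initiation. It stood at 101 and 135 FPKM in siNT, 187 and 231 FPKM in siRpl14, 216 and 244 FPKM in siRpl11, and 257 and 209.8 FPKM with both, above siNT throughout. Its rises were 0.82 ± 0.17, 0.97 ± 0.17 and 0.98 ± 0.17 (limma, adjusted p = 0.0127, 0.00545 and 0.0061), and the siRpl14 call ended without siNT replicate 1 or siRpl14 replicate 2 (0.0875 to 0.0909). Eif4g3 was 4.49 and 5.38 FPKM in siNT, 3.45 and 4.39 FPKM in siRpl14, 1.56 and 1.90 FPKM in siRpl11, and 2.37 and 1.69 FPKM with both. The libraries with siRpl11 were the low ones, and those with siRpl14 alone lay just under siNT. It fell by 1.12 ± 0.18 with siRpl11 (limma, adjusted p = 0.00388) and 0.98 ± 0.18 with both (limma, adjusted p = 0.00637), calls kept whichever library was left out, and gave -0.27 ± 0.18 with siRpl14 (limma, adjusted p = 0.254). Eif4g1, the main scaffold, ranged from 135 to 173 FPKM with log2 fold changes of 0.22, 0.07 and 0.06, none past the test. In set 3, Eif4g3 averaged 3.11 FPKM (SD 1.91) in siNT and 1.12 FPKM in siRpl14. The single libraries there gave 2.42 FPKM with siRpl11 and 0.42 FPKM with both. The siRpl11 value lay within the SD around the siNT mean.

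The cap-binding gene Eif4e rose in each comparison of set 1 and the inhibitor gene Eif4ebp1 fell in each, while Eif4ebp2 fell with siRpl11 and was not called otherwise. Eif4e was 37.4 and 41.5 FPKM in siNT, 47.8 and 52.7 FPKM in siRpl14, 59.8 and 64.1 FPKM in siRpl11, and 62.1 and 56.2 FPKM with both. The order of the groups was siNT, siRpl14, then the libraries with siRpl11, without overlap. Its rises were 0.34 ± 0.11, 0.64 ± 0.11 and 0.57 ± 0.11 (limma, adjusted p = 0.0452, 0.00469 and 0.0071). The siRpl14 call was near the threshold and ended when any library but siRpl14 replicate 1 was left out (limma, adjusted p = 0.0588 to 0.215), and that with both ended without siNT replicate 1 or siRpl14+siRpl11 replicate 1 (0.0524 to 0.0603). Eif4ebp1, which encodes 4E-BP1, was 332 and 339 FPKM in siNT, 243 and 240.2 FPKM in siRpl14, 236 and 239 FPKM in siRpl11, and 208 and 231 FPKM with both. The replicates nearly coincided and the knockdowns were clearly lower. It fell by 0.47 ± 0.09, 0.50 ± 0.09 and 0.61 ± 0.09 (limma, adjusted p = 0.0104, 0.00619 and 0.00413), with the siRpl14 call at 0.0504 to 0.0592 without either siNT library or siRpl14 replicate 2.

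Eif4ebp2, for the related 4E-BP2, was 95.7 and 100.5 FPKM in siNT, 96.6 and 78.7 FPKM in siRpl14, 76.9 and 64.8 FPKM in siRpl11, and 67.3 and 83.7 FPKM with both. It fell with siRpl11 by 0.47 ± 0.15 (limma, adjusted p = 0.0363, and 0.112 to 0.201 without either siNT library or siRpl11 replicate 2), with -0.17 ± 0.15 for siRpl14 and -0.38 ± 0.15 for both. Within a library, Eif4ebp1 exceeded Eif4e 8.88- and 8.18-fold in siNT, 5.08- and 4.55-fold in siRpl14, 3.95- and 3.72-fold in siRpl11, and 3.35- and 4.11-fold with both. This ratio of mRNAs is a description, and the proteins and their phosphorylation were not measured.

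The helicase cofactor genes Eif4h and Eif4b stood apart with siRpl14 alone. Eif4h was 149 and 152 FPKM in siNT, 186 and 224 FPKM in siRpl14, 150.3 and 144 FPKM in siRpl11, and 137 and 158 FPKM with both. Eif4b was 338 and 311 FPKM in siNT, 253 and 254 FPKM in siRpl14, 325 and 355 FPKM in siRpl11, and 332 and 312 FPKM with both. For each gene, the libraries with siRpl14 alone departed most from siNT in set 1. Eif4h rose by 0.43 ± 0.12 with siRpl14 (limma, adjusted p = 0.0287) and Eif4b fell by 0.35 ± 0.10 (limma, adjusted p = 0.0307). With siRpl11 they gave -0.03 ± 0.12 and 0.07 ± 0.10, and with both -0.03 ± 0.12 and -0.01 ± 0.10. Both siRpl14 calls ended without either siNT library or siRpl14 replicate 2 (limma, adjusted p = 0.0944 to 0.165 for Eif4h and 0.0604 to 0.143 for Eif4b, the latter also without siRpl14 replicate 1). Pabpc1, whose product links the poly(A) tail to eIF4G, was 791 to 873 FPKM in all 8 libraries of set 1, with log2 fold changes of -0.02, -0.05 and -0.06.

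**Figure D3:**
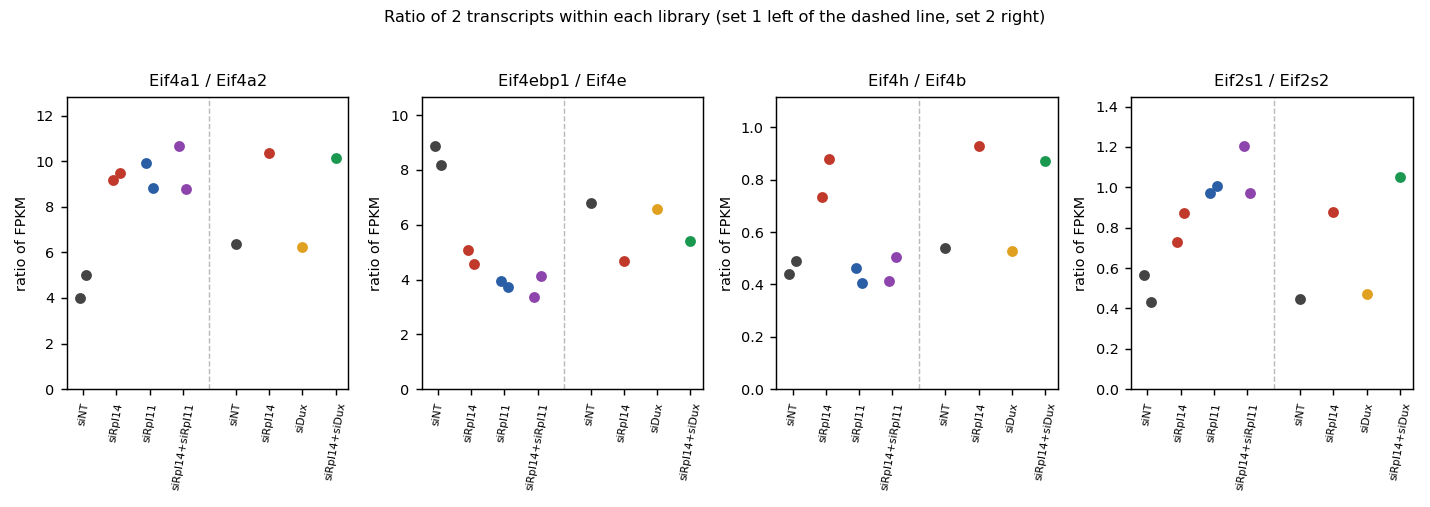
Ratio of the FPKM of 2 members within each library of sets 1 and 2, on axes starting at 0, for Eif4a1 over Eif4a2, Eif4ebp1 over Eif4e, Eif4h over Eif4b and Eif2s1 over Eif2s2. Eif4a1 over Eif4a2 was 4.02 and 5.01 in siNT of set 1 and 8.80 to 10.7 in its knockdown libraries, and Eif4h over Eif4b was 0.735 and 0.879 with siRpl14 alone against 0.407 to 0.506 in the other libraries of set 1.

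Of the 7 elongation genes, none rose and 1, Eef2k, fell with siRpl14 (14.3%, against 31.5% of all genes). None was called with siRpl11 or with both (44.3% and 41.6% of all genes), with 2 at an unadjusted limma p below 0.05 in each, and median-ratio rescaling gave 1 as higher with siRpl11. Fitted values were below 0 for 6 of the 7 in each comparison, all but Eif5a, but after quantile normalization for 4 with siRpl14 and 5 with siRpl11, so the direction depended on the scaling. The group's median was -0.28 with siRpl14, -0.14 with siRpl11 and -0.17 with both, and -0.02 with siRpl14 after quantile normalization. Eef1a1 was 12519.9 and 9547 FPKM in siNT, 8992 and 8141 FPKM in siRpl14, 10521 and 10005 FPKM in siRpl11, and 9708 and 9788 FPKM with both. The 2 siNT libraries spanned the siRpl11 and double-knockdown values, and only siRpl14 lay below both (-0.35 ± 0.15; limma, adjusted p = 0.0999). Eef2 gave -0.28 ± 0.13, -0.12 ± 0.13 and -0.17 ± 0.13, and Eef1b2, Eef1d and Eef1g, for the subunits that recharge eEF1A, gave -0.30 to -0.14. Eif5a, whose product relieves stalled ribosomes, gave 0.08, 0.30 and 0.30 (limma, adjusted p = 0.601, 0.0722 and 0.0712).

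Eef2k was low in all libraries: 6.78 and 6.83 FPKM in siNT, 4.41 and 2.36 FPKM in siRpl14, 5.46 and 4.24 FPKM in siRpl11, and 3.08 and 4.87 FPKM with both. It fell by 0.87 ± 0.26 with siRpl14 (limma, adjusted p = 0.0357, and 0.127 to 0.205 without either siNT library or siRpl14 replicate 2), and gave -0.42 ± 0.26 and -0.67 ± 0.26 otherwise. Tpt1, a highly expressed gene with a terminal oligopyrimidine tract, was 1749 and 1586 FPKM in siNT and 1859 to 2002 FPKM in the knockdown libraries. Its changes of 0.23, 0.17 and 0.26 did not pass (limma, adjusted p = 0.12, 0.202 and 0.0715), whereas after quantile normalization Tpt1 was called higher in all 3 comparisons.

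Members whose mRNAs are known to carry a terminal oligopyrimidine tract were compared with ribosomal protein genes, which share it. Of the 11 such members, Eif3e rose and Eif4b fell with siRpl14 (18.2%, against 31.5% of all genes). Eif3e alone was called with siRpl11 (9.09%, against 44.3% of all genes). Their median log2 fold change was -0.23 with siRpl14 and -0.09 with siRpl11, beside 0.03 and -0.11 for all genes. Leaving the siRNA targets aside, of 77 ribosomal protein genes 1 rose and 2 fell with siRpl14 (3.9%, median -0.19), while 7 rose and 1 fell with siRpl11 (10.4%, median 0.12). The lists were not tested against each other, and their medians were not recomputed under the other scalings.

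The 2 ribosomal protein knockdowns were then compared directly. Between siRpl14 and siRpl11 in set 1, 3 members differed, 6.98% of the members against 13.4% of all genes. Eif4g3 was higher with siRpl14 by 0.85 ± 0.18 (limma, adjusted p = 0.0196), Eif4h was higher by 0.46 ± 0.12 (limma, adjusted p = 0.0395), and Eif4b was lower, at -0.42 ± 0.10 (limma, adjusted p = 0.0304). All 3 calls were lost without siRpl11 replicate 1, siRpl11 replicate 2 or siRpl14 replicate 2, and those on Eif4h and Eif4b without some others (limma, adjusted p = 0.0713 to 0.108 for Eif4g3, 0.0697 to 0.198 for Eif4h and 0.0517 to 0.211 for Eif4b), and none was made after quantile normalization. With median-ratio rescaling 1 member was higher and 4 lower. Over all genes the median of this difference was 0.12, and -0.04 after quantile normalization, and the calls over all genes went from 1452 higher and 176 lower to 641 and 352, or 908 and 475 after median-ratio rescaling. The other 40 members were not called different between the siRNAs, which does not show that they responded alike. In set 3, Eif4g3 went the other way, at a mean of 1.12 FPKM in siRpl14 and 2.42 FPKM in the single siRpl11 library. Both levels were low.

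Adding siRpl11 to siRpl14 changed no member past the test. The count was 0 of 43, against 7.24% of all genes (0.627% higher and 6.61% lower), by limma, with 4 members at an unadjusted p below 0.05. Nearest were Eif4g3 (-0.70 ± 0.18; limma, adjusted p = 0.0523), Eif4h (-0.47 ± 0.12; limma, adjusted p = 0.0553) and Eif4b (0.34 ± 0.10; limma, adjusted p = 0.0821). Without trended and robust moderation, or without siRpl14 replicate 1, there was 1 call.

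The interaction, the change with both siRNAs beyond the sum of the single changes, was called for 1 member, 2.33% of the members against 4.49% of all genes (1.83% positive and 2.65% negative). Eif4a2 had an interaction of 0.74 ± 0.16 (limma, adjusted p = 0.0461). Its fall with both siRNAs (-0.82) was smaller in size than the sum of the falls with each (-0.90 and -0.66). The call was lost when any library but siRpl14 replicate 1 was left out (limma, adjusted p = 0.0655 to 0.157), and the interactions of the rising scanning genes were negative without passing, at -0.92 ± 0.27 for Eif1 and -0.79 ± 0.30 for Eif5 (limma, adjusted p = 0.0812 and 0.132).

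Sets 2 and 3 have their own siNT libraries. In both, members called with siRpl14 in set 1 kept their direction about as often as all called genes did. Whether set 2, told apart from set 1 by title style alone, was a separate experiment is not known. In set 2, with 1 library against 1 and no test, all 15 members called in set 1 differed in the same direction, as did 97.8% of all genes called. In set 3, 0 of 43 members passed limma's test, against 0.66% of all 13189 genes, 0.531% higher and 0.129% lower (5 members at an unadjusted p below 0.05), and the fitted direction matched set 1 for 11 of the 15, against 74% of all genes called. Set 3 was noisier: the median SE of a member's log2 fold change was 0.24, against 0.12 in set 1, and replicates in it correlated across genes at 0.809 to 0.853, against 0.975 to 0.979 in set 1.

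**Figure D4:**
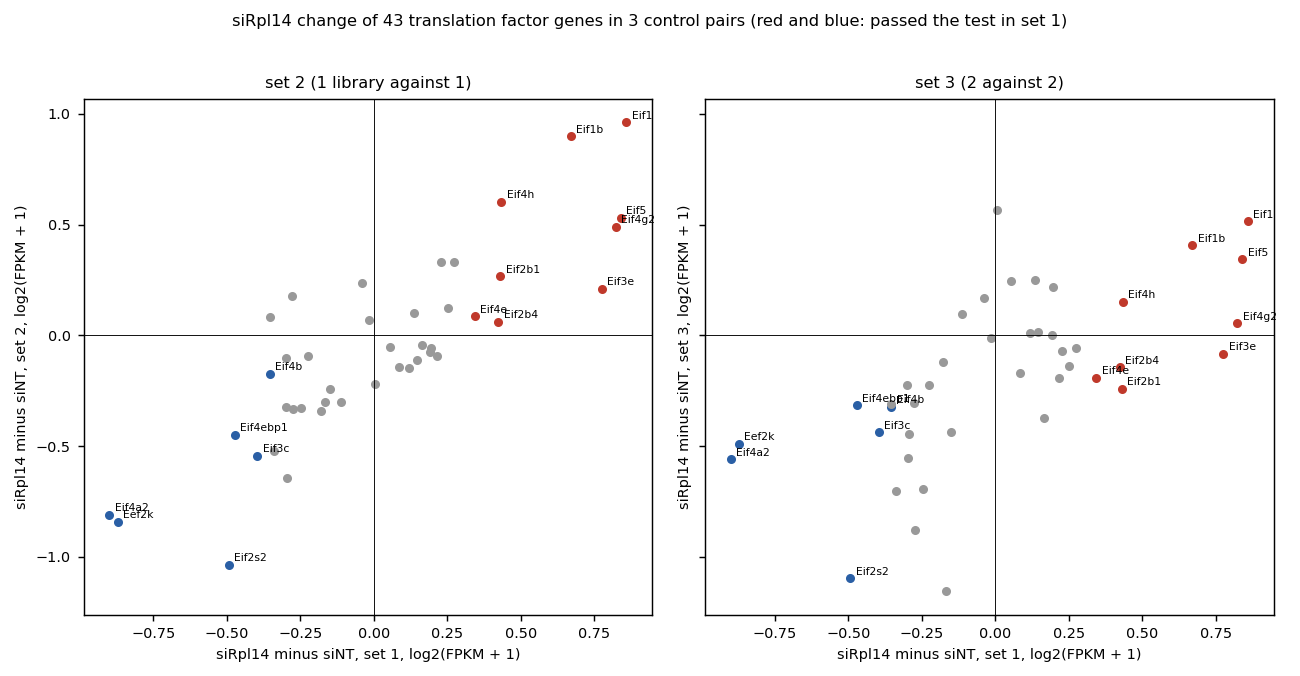
Difference between siRpl14 and siNT of each of the 43 genes on the log2(FPKM + 1) scale, with the set 1 estimate on the x axis and that of set 2 (left) or set 3 (right) on the y axis. Red and blue points passed the test in set 1 as higher or lower: all 15 keep their sign in set 2, and in set 3 Eif2b1, Eif2b4, Eif3e and Eif4e lie on the other side of 0.

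Eif2s2 and Eif4a2 were low with siRpl14 in every set. Eif2s2 was 204 FPKM in siNT of set 2 and 99.2 FPKM in siRpl14, and 219.7 and 179 FPKM against 86.0 and 98.9 FPKM in set 3. There the difference was -1.10 ± 0.19 (limma, adjusted p = 0.0551), the nearest to the threshold of all members, and it passed when the filter was raised to 5 FPKM (limma, adjusted p = 0.0395). Eif2s2 was also low in the unreplicated libraries of set 3, at 82.4 FPKM with siRpl11 and 68.4 FPKM with siRpl14+siRpl11. Eif4a2 was 208 FPKM in siNT and 118 FPKM in siRpl14 of set 2, and 289 and 300.3 FPKM against 213 and 187 FPKM in set 3 (-0.56 ± 0.16; limma, adjusted p = 0.22). The groups did not overlap for either gene in any set. The ratios within a library followed: Eif4a1 over Eif4a2 in set 3 was 1.23 and 0.944 in siNT and 1.43 to 1.84 in the 6 libraries with siRpl14 or siRpl11 given alone, together or with siDux, and Eif2s1 over Eif2s2 was 0.616 and 0.624 in siNT and 1.22 to 1.96 in them. With siDux alone in set 3, Eif2s1 over Eif2s2 was 0.873 and 0.997, also above both siNT libraries. Eif4a1 over Eif4a2 was 1.37 and 0.951 there. Eif4ebp1 over Eif4e did not separate the groups in set 3, at 0.743 and 0.888 in siNT and 0.689 and 0.804 in siRpl14. In set 2, Eif4h was 152 FPKM in siNT and 232 FPKM in siRpl14, and Eif4b was lower in siRpl14 than in siNT. In set 3, Eif4h was 61.3 and 45.4 FPKM in siNT and 64.0 and 54.0 FPKM in siRpl14, which overlap, and 26.5 FPKM in the single siRpl11 library, below both. Eif4b in set 3 was 435 and 372 FPKM in siNT, 316 and 326 FPKM in siRpl14 and 468 FPKM in siRpl11.

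The scanning genes were higher in each set for part of the libraries. Eif1 rose from 364 to 711 FPKM between the 2 libraries of set 2, and in set 3 it was 69.8 and 52.2 FPKM in siNT and 120.5 and 62.3 FPKM in siRpl14, where the groups overlapped (0.51 ± 0.35; limma, adjusted p = 0.648). Eif5 was 66.2 FPKM in siNT and 96.1 FPKM in siRpl14 of set 2, and 161 and 141 FPKM against 187 and 195 FPKM in set 3 (0.34 ± 0.16; limma, adjusted p = 0.462). Eif1b was 22.6 FPKM in siNT and 42.98 FPKM in siRpl14 of set 2, and 23.0 and 14.1 FPKM against 24.0 and 24.5 FPKM in set 3. For Eif5 and Eif1b the siRpl14 libraries were above siNT in all sets. Eif5b, level in set 1, was 36.4 FPKM in siNT and 31.2 FPKM in siRpl14 of set 2, but 70.7 and 70.4 FPKM against 95.4 and 115 FPKM in set 3. That was the largest fitted rise of any member with siRpl14 in set 3, without passing the test (0.57 ± 0.20; limma, adjusted p = 0.311).

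Counted over sets 1, 2 and 3, chosen after the values were seen and with no test, the siRpl14 libraries lay entirely above siNT for 2 members (Eif1b and Eif5), 4.65% of the members against 11.9% of 11144 genes. They lay entirely below siNT for 9 members (Eif2s2, Eif2b3, Eif3c, Eif3h, Eif4a2, Eif4b, Eif4g3, Eif4ebp1 and Eef1g), 20.9% against 11.4%. For siRpl11 over sets 1 and 3, 9 members lay above siNT (20.9% against 14.7%) and 10 below (23.3% against 23.7%), with Eif1, Eif5, Eif3e and Eif4g2 among the first and Eif2s2, Eif3c and Eif4a2 among the latter. Of the 19 members called with siRpl11 in set 1, 15 differed in the same direction in the single siRpl11 library of set 3, against 73.4% of all genes called. The exceptions were Eif1b, Eif2b1, Eif3g and Eif4ebp1. For siRpl14+siRpl11 it was 13 of 17, against 71.1% of all genes, with Eif1b, Eif3b, Eif3e and Eif3g as the exceptions.

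No member was called with siDux, alone or added to siRpl14. Dux was at 0 in both siNT and siDux of set 3, so these values do not show how far siDux depleted it there. In set 2 Dux was lower with siDux, at 0.0546 FPKM against 0.306 FPKM in siNT. With siRpl14+siDux it was 0.168 FPKM, against 1.5 FPKM in siRpl14. These are single libraries at low levels and were not tested. In set 2, siDux minus siNT ranged from -0.20 (Eef2k) to 0.24 (Eif3e) over the 43 members on the log2 scale, with a median of 0.00 and 0.01 for all genes. In set 3, 0 of 43 members passed limma's test between siDux and siNT (1 at an unadjusted p below 0.05), against 0.00758% of all genes. The siDux libraries lay above siNT in both sets for 3 members (6.98%, against 9.31% of 11144 genes) and below it for 6 (14%, against 9.03%), a count chosen after the values were seen and with no test. Among the 6 was Eif2s2, at 188 FPKM against 204 FPKM in set 2 and at 148 and 134 FPKM against 219.7 and 179 FPKM in set 3 (-0.49 ± 0.19; limma, adjusted p = 0.946). Between siRpl14+siDux and siRpl14, 0 members passed in set 3 (4 at an unadjusted p below 0.05), against 0.0152% of all genes. The largest fitted difference was that of Eif3m, a subunit gene of eIF3, at 82.8 and 75.3 FPKM in siRpl14 and 38.8 and 36.8 FPKM in siRpl14+siDux (-1.04 ± 0.23; limma, adjusted p = 0.354), against 143 and 141 FPKM in set 2. In set 2 that difference had a median of -0.05 and ran from -0.49 (Eif3e, 124 to 87.5 FPKM) to 0.20 (Eif3k, 260.1 to 299 FPKM). With siDux added to siRpl14, Eif2s2 stayed low at 83.9 FPKM in set 2 and 88.2 and 79.3 FPKM in set 3, and Eif4a2 at 111 FPKM and 170.5 and 169 FPKM. Eif1 was 619 FPKM with both siRNAs in set 2, above the 360.3 FPKM of siDux alone, but in set 3 it was 65.3 and 70.8 FPKM with both and 55.0 and 83.8 FPKM with siDux, which overlap.

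The rest of the translation machinery was described from lists of related genes in set 1, and these calls were not checked with libraries left out. Of 24 tested initiation factors outside the members, 9 rose and 1 fell with siRpl14 (41.7%, against 31.5% of all genes), and 9 rose and 4 fell with siRpl11 (54.2% against 44.3%). With siRpl14 in set 3, no gene of this list or of the lists below was called, against 0.66% of all genes. Fitted values of the 24 were above 0 for 10 and below 0 for 14 there, with a median of -0.10. In set 1 they were above 0 for 18 and below 0 for 6, with a median of 0.25. Mcts1 and Denr, whose products form a pair that acts in reinitiation and recycling, rose by 1.12 ± 0.12 and 0.56 ± 0.11 with siRpl14 and by 1.07 ± 0.12 and 0.93 ± 0.11 with siRpl11 (limma, adjusted p = 0.0017, 0.0087, 0.00239 and 0.00239). The helicase gene Ddx3x rose by 0.88 ± 0.16 and 1.16 ± 0.16 (limma, adjusted p = 0.00861 and 0.00305). Paip2b, for an inhibitor of the poly(A)-binding protein, fell by 0.52 ± 0.14 and 0.63 ± 0.14 (limma, adjusted p = 0.0278 and 0.0104), and Eif4e3 and Pdcd4, for an atypical cap-binding protein and an eIF4A inhibitor, fell by 0.87 ± 0.17 and 0.70 ± 0.19 with siRpl11 (limma, adjusted p = 0.00684 and 0.0186).

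Among 13 tested elongation and termination factors outside the members, 2 rose and 2 fell with siRpl14 (30.8%, against 31.5% of all genes), and 5 rose and 2 fell with siRpl11 (53.8% against 44.3%). Hbs1l, for a rescue factor of stalled ribosomes, rose by 0.64 ± 0.12 and 0.80 ± 0.12, and Etf1, for the release factor eRF1, by 0.40 ± 0.11 and 0.51 ± 0.11 (limma, adjusted p = 0.00944, 0.00371, 0.0267 and 0.00852). Gtpbp2, also linked to stalled ribosomes, fell by 0.55 ± 0.13 and 1.07 ± 0.13 (limma, adjusted p = 0.0162 and 0.00239), and Gtpbp1 by 0.39 ± 0.11 with siRpl14 (limma, adjusted p = 0.0282). With siRpl11, Dhps, whose product starts the hypusine modification of eIF5A, rose by 0.54 ± 0.16 and Eefsec, for the selenocysteine elongation factor, fell by 0.68 ± 0.17 (limma, adjusted p = 0.028 and 0.0146).

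The regulators of eIF2 and of the cap machinery were the last lists. Of 6 genes of eIF2alpha kinases and phosphatase subunits, 2 rose with siRpl14, and 1 rose and 1 fell with siRpl11 (33.3% in each, against 31.5% and 44.3% of all genes). Ppp1r15a, for the stress-induced phosphatase subunit GADD34, rose by 1.13 ± 0.15 and 1.32 ± 0.15 (limma, adjusted p = 0.00312 and 0.00239), Eif2ak1 (HRI) by 1.03 ± 0.15 with siRpl14 (limma, adjusted p = 0.00402), and Eif2ak4 (GCN2) fell by 0.78 ± 0.15 with siRpl11 (limma, adjusted p = 0.00713). Of 16 genes of mTORC1 and MNK signalling, 5 rose and 1 fell with siRpl14 (37.5%, against 31.5% of all genes), and 3 rose and 5 fell with siRpl11 (50% against 44.3%), shares near those of all genes. Akt1s1 (PRAS40) and Sesn2, both for negative regulators of mTORC1, rose by 0.90 ± 0.15 and 0.84 ± 0.22 with siRpl14 and by 0.78 ± 0.15 and 0.74 ± 0.22 with siRpl11 (limma, adjusted p = 0.00628, 0.0237, 0.00671 and 0.0264). Ddit4, another such regulator, rose by 0.76 ± 0.24 with siRpl14 (limma, adjusted p = 0.0481), and Rheb, for the activating GTPase, by 0.43 ± 0.10 with siRpl11 (limma, adjusted p = 0.0127). Sesn1 fell by 0.45 ± 0.15 and 0.71 ± 0.15 (limma, adjusted p = 0.047 and 0.00808), and Mknk1, for a kinase of eIF4E, and Mlst8, for a subunit of mTORC1, fell by 0.91 ± 0.16 and 0.71 ± 0.14 with siRpl11 (limma, adjusted p = 0.00495 and 0.00769). These lists mix activators and inhibitors, so a count of directions does not say whether signalling was higher or lower.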

How the data were processed

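RNA-seq of 22 libraries was used as deposited. FPKM values in 2 tables, 1 column per library, were made by the authors, with STAR and Cuffnorm on the build mm9 per the submitters' processing notes. Tool versions, gene models, strandedness of counting and the scaling option: not given in the sources used here. Since each table may carry its own scaling, no test crosses tables. Sets 1 and 2 were told apart by title style alone.

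Sets 1 and 3 were each fitted with limma 3.58.1 (R 4.3.3, statmod 1.5.0; trended, robust moderation) on log2(FPKM + 1), for genes at 1 FPKM or more in no fewer than 2 libraries. P-values were adjusted over all genes by Benjamini-Hochberg at 0.05. Unreplicated libraries did not enter the fit of set 3, and set 2 has values only. This scale understates fold changes of low genes. The procedure was run on simulated data with independent noise and few changed genes. That run does not show how calls hold when many genes change, as in set 1, or under another scaling. As the labels do not give separate cultures, the p-values rest on the spread among these libraries, which may be technical. Depth is unknown, since no counts were used.

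The genes and lists were chosen with earlier results of these data known. Named are the siRNA targets, up to 5 largest rises and falls per comparison among members called, paralog pairs, every member by role, and up to 3 rises and falls per other list. Other settings tried were a pseudocount of 0.1, no filter, a filter at 5 FPKM, quantile and median-ratio scaling, plain moderation, a replicate block, each library left out, and sets 1 and 2 fitted together. Promoter windows and coordinates are RefSeq's, on GRCm38.p6, and were used for letters only. A motif was searched on both strands.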

Additional observations from a re-analysis of the deposited data

Results flagged for a closer look

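Eif4a2 had an interaction of 0.74 between siRpl14 and siRpl11 in set 1 on the log2 scale, which means that the effect of adding siRpl11 differed with and without siRpl14 by limma's test (adjusted p = 0.0461, and 0.0366 to 0.157 over the other settings and left-out libraries). Eif2b1 differed in direction between sets: both siRpl14 libraries were above siNT in set 1 (0.43), and both were below siNT in set 3, at -0.24 on the log2 scale. This difference between sets was not tested. Eif2b1 did not pass limma's test in set 3 (adjusted p = 0.89).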

How the results depend on the processing

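No member called in set 1 or set 3 reversed direction under any setting or left-out library. Leaving out 1 library at a time, the members called ranged from 1 to 15 for siRpl14 against siNT, 8 to 20 for siRpl11, 7 to 18 for siRpl14+siRpl11, 0 to 1 for siRpl14+siRpl11 against siRpl14, 0 to 2 for siRpl14 against siRpl11, and 0 to 2 for the interaction, all in set 1, and stayed at 0 in set 3. For siRpl14 against siRpl11, 0 were called after quantile normalization, 5 after median-ratio rescaling and 1 with the replicate block. For the interaction, 0 were called with a pseudocount of 0.1, with no filter, with the filter at 5 FPKM, after median-ratio rescaling, with plain moderation and with the replicate block. Plain moderation gave 1 call for siRpl14+siRpl11 against siRpl14, and the filter at 5 FPKM gave 1 for siRpl14 against siNT in set 3; the cause was not tested. Sets 1 and 2 fitted together gave 18 members for siRpl14 against siNT (11 higher, 7 lower), with 47.7% of 12375 genes called.

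With the replicate number as a block, the counts were 11 for siRpl14, 17 for siRpl11 and 16 for both siRNAs against siNT, and 0 for siRpl14+siRpl11 against siRpl14 and in all comparisons of set 3. Samples of set 1 with the same number had deviations correlated at -0.501 to 0.502, and those of set 3 at 0.00609 to 0.039, so the numbers were not taken as pairing.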
